A study of Mus musculus with 6 samples.

Results

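The 10 genes described here are the transcription factor gene Nfe2l2, whose product is NRF2, the gene of its inhibitor Keap1, and 8 antioxidant genes known as NRF2 targets, Hmox1, Nqo1, Gclc, Gclm, Txnrd1, Srxn1, Prdx1 and Gsr. They were taken by name out of the 56941 genes of the count table, and 9 of them had enough counts for the test, among 13299 genes in all. The measurements are RNA-seq counts from 3 vehicle and 3 S1P cultures of T cells from the spleen of B6 mice, labelled CD8+. All 6 cultures were activated with plate-bound anti-CD3 and anti-CD28 and with recombinant IL-2 for 3 days in medium that held the reducing agent beta-mercaptoethanol, and sphingosine-1-phosphate (S1P, 5 µM) or vehicle was added after 24 h. The sample labels call the samples biological replicates without saying whether they came from separate mice, so the p-values measure the spread between these cultures.

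The libraries held between 12048880 and 17384084 counts. Mitochondrial genes took 7.80% of the counts in S1P replicate 2 and between 4.10% and 4.93% in the other libraries. S1P replicate 2 also stood apart over all genes, with a chi-square per gene of 31.4 and 17.9 against S1P replicates 1 and 3, while the other pairs within a group lay between 3.77 and 5.97. Values without it are given for several of the genes it moved, and not for all of them. The labels describe purified naive CD8+ T cells, and the methods of the study allow for total splenocytes. Levels are given as CPM, counts scaled to the size of each library with TMM factors. Cd8a averaged 222 CPM in the vehicle libraries and Cd4, the marker of helper T cells, 203 CPM. Ms4a1, a B cell gene, averaged 214 CPM, so transcripts of other lymphocytes were present in every library. Summed over 6 T cell markers, the CD8 T cell list ranged from 1091 to 1250 CPM in the vehicle and from 947 to 1052 CPM in the S1P libraries, and of the 6 genes Cd8a and Cd8b1 were called lower (log2 fold changes of −0.67 and −0.55), Cd3d, Cd3g and Trac were not called (−0.28, −0.21 and −0.08) and neither was Cd3e (0.15). The summed level of 8 B cell markers ranged from 549 to 686 CPM and from 574 to 664 CPM, with Ms4a1 and Cr2 called lower (−0.39 and −0.74), Ebf1 called higher (0.60) and the other 5 not called. For 8 markers of CD4 T, NK and other cells the sum ranged from 301 to 329 CPM and from 312 to 380 CPM, with Cd4 at a log2 fold change of 0.10 and overlapping groups. In bulk samples such as these, fewer cells of a type and less RNA per cell cannot be told apart, and the part of cell composition in the results that follow was not tested.

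NRF2 is made continuously and is held at a low level by KEAP1, an adaptor that presents it to a ubiquitin ligase for degradation. When reactive cysteines of KEAP1 are modified by oxidants or electrophiles, NRF2 escapes, pairs with a small MAF protein and binds antioxidant response elements in the regulatory DNA of its targets. NRF2 is therefore regulated largely at the protein level, which RNA counts do not measure. Its targets supply the glutathione and thioredoxin systems, which keep peroxides low and protein thiols reduced, and dividing T cells rely on both.

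After S1P, Txnrd1 and Prdx1 of the thioredoxin arm were lower and Hmox1 was higher, while Nfe2l2 and Keap1 passed neither threshold. Each change was tested by edgeR's quasi-likelihood method, and p-values were adjusted by Benjamini and Hochberg's procedure across every tested gene. Calls needed an adjusted p no higher than 0.05 together with a log2 fold change of 0.3 or more in either direction. Of the 9 tested members 3 were called, beside 23.1% of all tested genes. Without each library in turn from 2 to 4 members were called, beside 15.7% to 24.1% of the genes tested in those fits. Hmox1 was the 1 member called higher, beside 12.7% of all genes, and Txnrd1 and Prdx1 were the 2 called lower, beside 10.4%. The Hmox1 call was lost without vehicle replicate 1 (log2 fold change 0.54, edgeR's adjusted p = 0.0675). With the adjusted p alone, Gclm joined the 3 called members as the 4th, beside 28.5% of all genes. Gclm missed the adjusted p without vehicle replicate 1 (edgeR's adjusted p = 0.0519) or vehicle replicate 2 (0.0502). The vehicle and S1P libraries did not overlap for 6 of the 9, which were Hmox1, Gclm, Txnrd1, Srxn1, Prdx1 and Gsr, beside 45.6% of all genes. The median log2 fold change of the 9 was −0.20 and that of all tested genes 0.01.

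**Figure D1:**
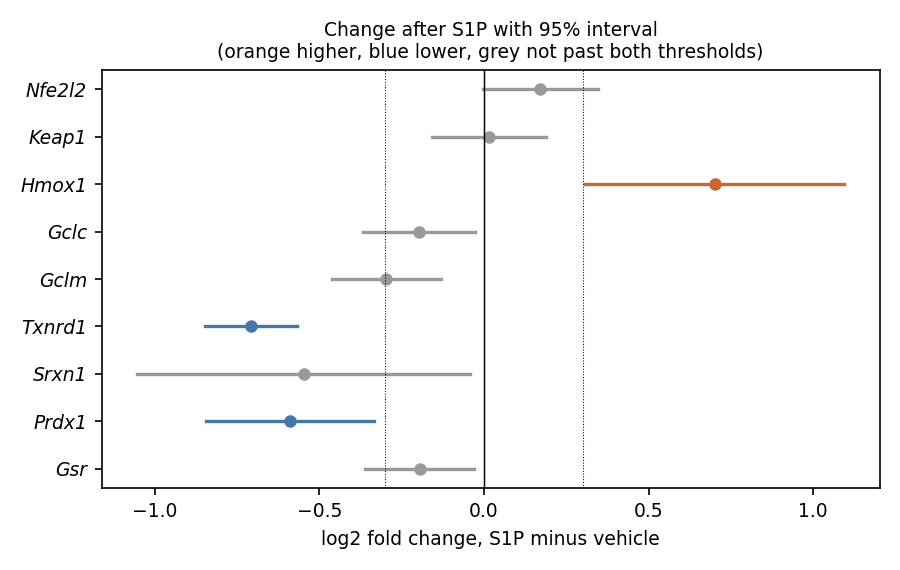
Log2 fold change (S1P minus vehicle, x axis) of each of the 9 tested members, as points with 95% intervals from edgeR's fit to 3 libraries per group, with dotted lines at a log2 fold change of 0.3 in either direction. Hmox1 lies at 0.70, Prdx1 and Txnrd1 at −0.59 and −0.71, and Gclm lies on the dotted line at −0.30.

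Summed over the 10 genes, the vehicle libraries held 875, 912 and 888 CPM and the S1P libraries 644, 607 and 718 CPM. Every S1P library lay below every vehicle library. Prdx1 and Txnrd1 made up 67.9%, 68.2% and 68.8% of that sum in the vehicle libraries and 60.3%, 56.1% and 62.3% after S1P.

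Promoters are shown for the members whose DNA holds a letter match to the NRF2 element or to the related AP-1 site. The window was 300 bases, from 250 before to 50 after each start, in the RefSeq promoter table of build GRCm38.p6, where 9 promoters of 7 members were found. Entries for Hmox1, Gclc and Gsr were not found. The core of the antioxidant response element, searched as TGACNNNGC on both strands, was present in 5 of the 9 windows (55.6%) and in 4071 of 32851 promoters of all genes (12.4%). The 5 belonged to Nfe2l2, Gclm, Txnrd1, Prdx1 and Srxn1, and in Srxn1 the match began 29 bases after the start. The AP-1 site, searched as TGANTCA, which reads the same on both strands, was present in Srxn1 and Prdx1 (22.2% of the windows) and in 7.81% of all promoters. A letter match describes the DNA and does not show binding. Capitals mark the element core in the first 4 sequences and the AP-1 sites in Srxn1. The stretches lie at chr2:75704854-75704913 on the minus strand (Nfe2l2), chr3:122245397-122245456 (Gclm), chr10:82858956-82859155 (Txnrd1, the second of its promoters), chr4:116685349-116685483 (Prdx1) and chr2:152105399-152105498 (Srxn1), the last 4 on the plus strand, and all are written 5′ to 3′ along the gene.
Nfe2l2: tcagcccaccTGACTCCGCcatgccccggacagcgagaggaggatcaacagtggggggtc
Gclm: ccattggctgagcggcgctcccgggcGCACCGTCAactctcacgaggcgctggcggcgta
Txnrd1: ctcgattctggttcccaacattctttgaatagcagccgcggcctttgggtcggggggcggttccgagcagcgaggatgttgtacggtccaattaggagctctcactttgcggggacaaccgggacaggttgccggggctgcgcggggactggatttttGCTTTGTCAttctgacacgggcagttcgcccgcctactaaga
Prdx1: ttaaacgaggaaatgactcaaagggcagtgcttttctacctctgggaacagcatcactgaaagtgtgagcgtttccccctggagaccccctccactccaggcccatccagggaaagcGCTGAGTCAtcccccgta
Srxn1: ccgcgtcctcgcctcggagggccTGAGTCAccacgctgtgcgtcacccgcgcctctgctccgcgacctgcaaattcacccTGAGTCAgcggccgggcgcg
The match to TGACNNNGC lay on the opposite strand in Gclm, Txnrd1 and Prdx1, so that the capitals read as its reverse complement. In Srxn1 it also lay on the opposite strand, outside the stretch shown. The match began 240 bases before the start in Nfe2l2, 134 in Gclm, 92 in Txnrd1 and 133 in Prdx1. In Prdx1 the element overlaps an AP-1 match that begins 131 bases before the start, and a further AP-1 match lies 237 bases before it. Among the 4 members with a TGACNNNGC match before the start, Txnrd1 and Prdx1 were called lower, beside 10.4% of all tested genes. Gclm passed the adjusted p alone and Nfe2l2 passed neither threshold. Forms of the element with other letters were not searched.

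Nfe2l2 (ENSMUSG00000015839, GRCm39 chr2:75504739-75534985, minus strand) stood at 44.7, 46.5 and 47.2 CPM in the vehicle libraries and at 47.2, 54.2 and 54.9 CPM in the S1P libraries. S1P replicates 2 and 3 lay above every vehicle library, and S1P replicate 1 lay level with the highest vehicle library. The log2 fold change was 0.17 ± 0.08 (SE, n = 3 per group; 95% interval −0.0035 to 0.35; edgeR's quasi-likelihood test, adjusted p = 0.131), so a rise of the size needed for a call lay inside the interval. Without S1P replicate 1 it was 0.24 and passed the adjusted p (edgeR, 0.0375) but not the fold threshold.

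Keap1 (ENSMUSG00000003308, GRCm39 chr9:21141026-21150679, minus strand) stood at 41.5, 38.8 and 42.1 CPM in the vehicle libraries and at 42.2, 38.4 and 43.3 CPM after S1P. The libraries of both groups were interleaved. Its log2 fold change was 0.02 (95% interval −0.16 to 0.19; edgeR's quasi-likelihood test, adjusted p = 0.897), and its sign changed in 6 of 14 alternative settings. Genes on the opposite strand cover 25.8% of the exon bases of Keap1, and the strand setting of the counting is not given in the sources used here. Per kilobase of transcript, the log2 ratio of Keap1 to Nfe2l2 was −0.01 ± 0.08 (SD, n = 3) in the vehicle libraries and −0.17 ± 0.17 (SD, n = 3) after S1P. The difference of −0.16 gave p = 0.3 in an exact two-sided permutation test, which cannot go below 0.1 with 3 libraries per group. This difference was −0.24 without S1P replicate 1 and −0.08 without S1P replicate 2.

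Txnrd1 (ENSMUSG00000020250, GRCm39 chr10:82669785-82733546, plus strand) encodes the cytosolic thioredoxin reductase, a selenoprotein that uses NADPH to keep thioredoxin reduced. It stood at 249, 244 and 244 CPM in the vehicle libraries and at 145, 148 and 158 CPM in the S1P libraries. The vehicle libraries lay close together, and all 3 S1P libraries lay far below them. Its log2 fold change was −0.71 ± 0.06 (SE, n = 3 per group; 95% interval −0.85 to −0.57; edgeR's quasi-likelihood test, adjusted p = 4.03e-05), and the fitted level fell by 38.8%. By the size of the log2 fold change Txnrd1 ranked 1204 among the 13299 tested genes. It was called under every alternative tried, with log2 fold changes from −0.75 to −0.68.

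Prdx1 (ENSMUSG00000028691, GRCm39 chr4:116532123-116558398, plus strand) encodes an abundant cytosolic peroxiredoxin, which reduces hydrogen peroxide and is itself reduced by thioredoxin. Its level was 346, 378 and 368 CPM in the vehicle libraries and 243, 193 and 289 CPM after S1P. Every S1P library lay below the vehicle libraries, and they were spread more widely than the vehicle libraries, with S1P replicate 2, the library with the high mitochondrial share, the lowest. For Prdx1 the log2 fold change was −0.59 ± 0.12 (SE, n = 3 per group; 95% interval −0.85 to −0.33; edgeR's quasi-likelihood test, adjusted p = 0.00353). It was −0.45 without S1P replicate 2 and −0.74 without S1P replicate 3, and Prdx1 was called in both fits. The gene AV051173 covers 13.8% of the exon bases of Prdx1 on the opposite strand. Of the short sequence stretches in Prdx1 transcripts, 24.8% also occur in other genes on either strand, and the handling of multi-mapping reads is not given.

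Srxn1 (ENSMUSG00000032802, GRCm39 chr2:151947436-151957687, plus strand) encodes sulfiredoxin, which restores peroxiredoxins whose cysteine has been overoxidised. It was counted 50, 32 and 34 times in the vehicle libraries and 30, 20 and 21 times in the S1P libraries. After scaling these were 2.88, 2.35 and 2.19 CPM against 1.69, 1.76 and 1.65 CPM. The S1P libraries were all below the vehicle libraries. The log2 fold change of −0.55 had an SE of 0.23 at this depth (95% interval −1.05 to −0.04; edgeR's quasi-likelihood test, adjusted p = 0.0979), so Srxn1 was not called, though its estimate was close to that of Prdx1.

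Gclm (ENSMUSG00000028124, GRCm39 chr3:122039126-122065061, plus strand) encodes the modifier subunit of glutamate-cysteine ligase, the enzyme of the rate-limiting step of glutathione synthesis. It stood at 44.3, 45.0 and 43.9 CPM in the vehicle libraries and at 35.5, 34.4 and 38.5 CPM after S1P. The vehicle libraries were nearly level and the S1P libraries were all lower. The log2 fold change was −0.30 ± 0.08 (SE, n = 3 per group; edgeR's quasi-likelihood test, adjusted p = 0.0134), just short of the threshold on the fold change at more digits, and it passed both thresholds in 6 of 14 alternative settings. Without vehicle replicate 1 (−0.30) or vehicle replicate 2 (−0.29) it missed the adjusted p, at 0.0519 and 0.0502 in edgeR's test. Other genes cover 12.6% of its exon bases on the opposite strand and 6.18% on its own strand.

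Gclc (ENSMUSG00000032350, GRCm39 chr9:77661797-77701770, plus strand), the catalytic subunit of the same enzyme, stood at 71.7, 72.0 and 67.5 CPM in the vehicle libraries and at 58.8, 67.6 and 58.3 CPM after S1P. S1P replicates 1 and 3 lay below the vehicle libraries and replicate 2 was level with the lowest of them. For Gclc the log2 fold change was −0.20 (95% interval −0.37 to −0.03; edgeR's quasi-likelihood test, adjusted p = 0.0788). It passed the adjusted p, though not the fold threshold, without S1P replicate 2 (−0.26, edgeR's adjusted p = 0.00683) and with total count scaling (−0.23, edgeR's adjusted p = 0.0445). The log2 ratio of Gclc to Gclm per kilobase was 1.55 ± 0.04 (SD, n = 3) in the vehicle libraries and 1.65 ± 0.19 (SD, n = 3) after S1P. The difference of 0.10 gave p = 0.5 in the exact two-sided permutation test, and it was −0.0024 without S1P replicate 2.

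Gsr (ENSMUSG00000031584, GRCm39 chr8:34142551-34188192, plus strand) encodes glutathione reductase, which uses NADPH to return oxidised glutathione to its reduced form. Its level was 72.1, 79.0 and 68.8 CPM in the vehicle libraries and 62.9, 61.8 and 67.3 CPM after S1P. The groups did not overlap, with S1P replicate 3 just under vehicle replicate 3. The log2 fold change was −0.19 (95% interval −0.36 to −0.03; edgeR's quasi-likelihood test, adjusted p = 0.0737). Set against Gsr, which also draws on NADPH, Txnrd1 had a log2 ratio per kilobase of 1.43 ± 0.10 (SD, n = 3) in the vehicle and 0.92 ± 0.02 (SD, n = 3) in the S1P libraries. This ratio was chosen after the values were seen, and its difference of −0.51 gave p = 0.1 in the exact two-sided permutation test, the smallest it allows.

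Hmox1 (ENSMUSG00000005413, GRCm39 chr8:75820241-75827217, plus strand) encodes inducible haem oxygenase, which breaks down haem and is also repressed by BACH1. It was counted 61, 73 and 72 times in the vehicle libraries and 131, 91 and 82 times in the S1P libraries. After scaling these were 3.52, 5.35 and 4.63 CPM against 7.37, 7.99 and 6.44 CPM, and every S1P library lay above every vehicle library. For Hmox1 the log2 fold change was 0.70 ± 0.18 (SE, n = 3 per group; 95% interval 0.31 to 1.10; edgeR's quasi-likelihood test, adjusted p = 0.0137). Without vehicle replicate 1, the lowest of the 6, it was 0.54 and no longer called (edgeR's quasi-likelihood test, adjusted p = 0.0675). Macrophages are rich in Hmox1, and the summed level of 12 myeloid markers ranged from 6.46 to 8.55 CPM in the vehicle and from 6.12 to 9.57 CPM in the S1P libraries. Of these 12 markers 5 had at most 3 counts in every library, with C1qa at 0 in all of them and Lyz2 at 2 or fewer. Most of the sum came from Cd68, at means of 3.22 CPM (vehicle) and 3.49 CPM (S1P), and Spi1, at 3.29 and 3.06 CPM, and both were detected in every library with overlapping groups. The part of myeloid cells in the Hmox1 result was not tested.

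Nqo1 (ENSMUSG00000003849, GRCm39 chr8:108113835-108129934, minus strand) encodes a quinone reductase often read as a reporter of NRF2 activity. It was counted 9, 12 and 8 times in the vehicle libraries and 8, 4 and 2 times in the S1P libraries. After scaling these were 0.519, 0.880 and 0.514 CPM against 0.450, 0.351 and 0.157 CPM, and the S1P libraries were all below the vehicle libraries. With 43 counts in all Nqo1 did not pass the filter. Fitted with no filter, its log2 fold change was −0.94 ± 0.55 (SE, n = 3 per group; edgeR's quasi-likelihood test, adjusted p = 0.346), so the difference did not pass the test at this depth.

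Per kilobase of canonical transcript, the vehicle level fell from 136 CPM for Prdx1 and 73.8 CPM for Txnrd1 to 27.4 CPM for Gsr, 20.4 CPM for Gclc, 12.8 CPM for Nfe2l2 and 12.7 CPM for Keap1. Gclm followed at 6.99 CPM, Hmox1 at 2.85 CPM, Srxn1 at 0.343 CPM and Nqo1 at 0.239 CPM. The vehicle libraries of Nfe2l2 (12.4 to 13.1 CPM) and Keap1 (12.1 to 13.2 CPM) overlapped, as did those of Srxn1 and Nqo1, and the other neighbours were separate. Gsr and Gclc change places when merged exons of all transcripts are used as the length. The 2 genes at the top of this order, Prdx1 and Txnrd1, were the ones called lower after S1P.

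**Figure D2:**
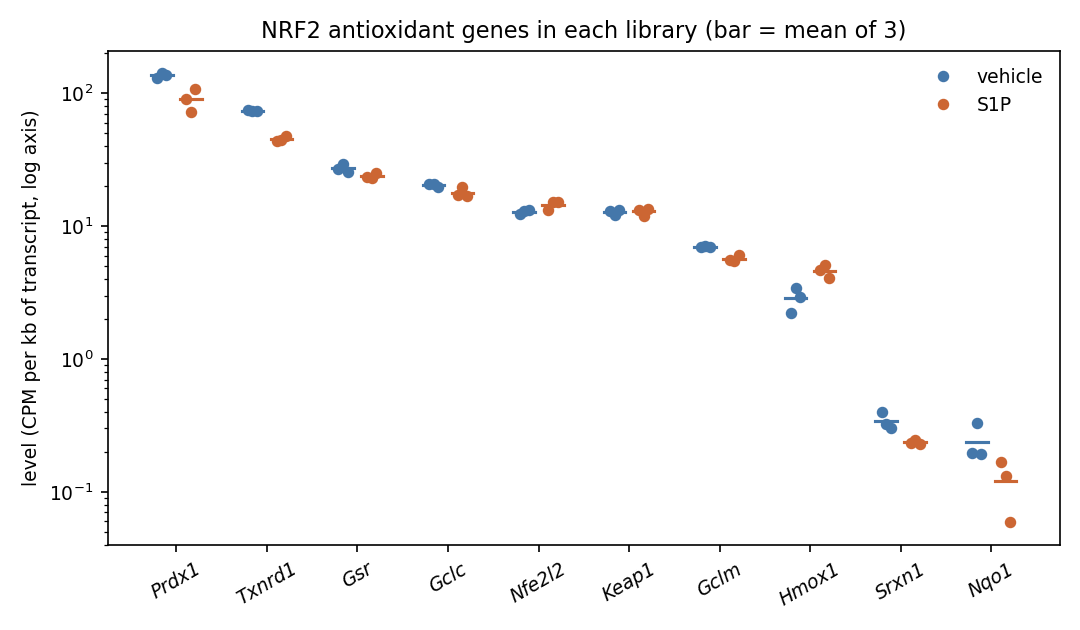
Level of each of the 10 genes in each library, in CPM per kilobase of canonical transcript on a log axis, with vehicle in blue, S1P in orange and a bar at the mean of 3 libraries. The S1P points of Prdx1 and Txnrd1 lie below their vehicle points, those of Hmox1 lie above, and those of Keap1 are interleaved.

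The other genes of the pathway were taken from 7 lists by role, with 136 different genes found in the annotation, and each list's share of called genes is given beside the 23.1% of all tested genes (12.7% higher and 10.4% lower). Among 15 tested regulators and partners of NRF2, 3 were called higher and 2 lower (33.3% called), and the median log2 fold change was −0.07. Maff, a small MAF partner, rose from 2.88, 3.59 and 4.12 CPM to 8.67, 8.51 and 7.07 CPM, a log2 fold change of 1.20. The other small MAF genes, named after their values were seen, were more abundant and were not called, Mafk at 32.3 CPM in the vehicle and 26.4 CPM in the S1P libraries (−0.29, edgeR's adjusted p = 0.0344, groups not overlapping) and Mafg at 44.5 and 41.2 CPM (−0.11, groups overlapping). Btrc, which encodes a ubiquitin ligase subunit that also binds NRF2, was higher at 0.40 (0.35 and not called without vehicle replicate 3), and Nfe2l1, the gene of the related factor NRF1, at 0.34 (0.30 and not called without S1P replicate 1). Pgam5 and Dpp3, both known to bind KEAP1, were lower at −0.51 and −0.44. Bach1, which represses Hmox1, had a log2 fold change of −0.07 with overlapping groups and was named after its values were seen.

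Among 12 tested genes of the further NRF2 targets, 4 were called higher and 3 lower (58.3% called, beside 23.1% of all tested genes), and 9 of the 21 found were not tested. The median log2 fold change of the 12 was 0.04. Slc7a11, the cystine transporter subunit that feeds glutathione synthesis, stood at 3.17, 3.08 and 2.38 CPM in the vehicle libraries and at 10.0, 8.60 and 8.32 CPM after S1P. Every S1P library was above the vehicle libraries, and the log2 fold change was 1.65 ± 0.17 (SE, n = 3 per group; edgeR's quasi-likelihood test, adjusted p = 7.9e-05). Gstm1, a glutathione transferase, rose by 1.37 on the log2 scale, Ephx1, an epoxide hydrolase, by 0.69 and Ugdh, which makes the sugar donor of glucuronidation, by 0.43. Gsto1, another transferase, fell by 0.70. Known targets of NRF2 lay on both sides, with Slc7a11 and Hmox1 higher and Txnrd1 and Prdx1 lower.

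**Figure D3:**
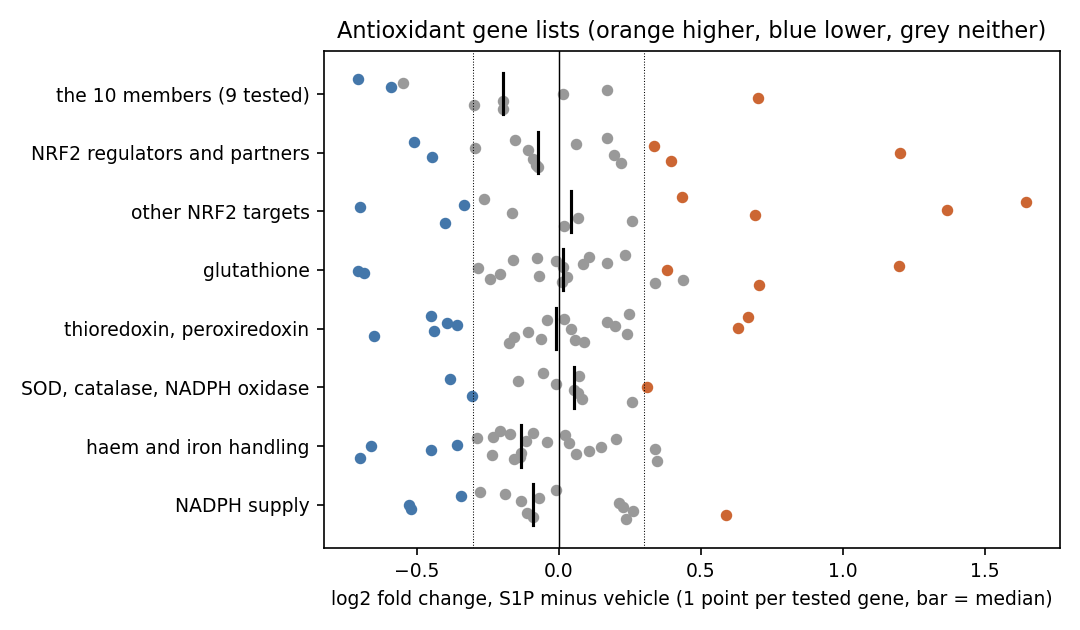
Log2 fold change (S1P minus vehicle, x axis) of every tested gene of the members and the 7 lists (y axis), with 1 point per gene, called genes in orange (higher) or blue (lower), others in grey, and a bar at each list's median. The medians lie between −0.20 and 0.05, and every list but haem and iron handling holds genes called in both directions.

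The thioredoxin and peroxiredoxin list, beyond Txnrd1, Prdx1 and Srxn1, had 2 genes called higher and 5 lower of 20 tested (35%, beside 23.1% of all tested genes), and its median log2 fold change was −0.01. Txnip, which binds and inhibits thioredoxin, rose by 0.67 and Sesn2, a stress-induced sestrin, by 0.63 on the log2 scale. Prdx3, the mitochondrial peroxiredoxin, stood at 120, 117 and 117 CPM in the vehicle libraries and at 84.7, 56.3 and 83.8 CPM after S1P, a log2 fold change of −0.65. As with Prdx1, S1P replicate 2 was the lowest library, and without it the log2 fold change of Prdx3 was −0.48 and still called. Prdx6 was lower at −0.44, and at −0.31 and still called without S1P replicate 2, its lowest library. Txnrd2, the mitochondrial reductase, was lower at −0.45. Txnrd2 lost its call without any of vehicle replicates 1, 2 and 3 (−0.43, −0.45 and −0.49) or S1P replicates 2 and 3 (−0.33 and −0.40). The remaining members of these families were added after their values were seen. Of these the thioredoxins Txn1 and Txn2 were called lower at −0.36 and −0.39, and Txn1 lost its call without vehicle replicate 2 (−0.33), vehicle replicate 3 (−0.35) or S1P replicate 2 (−0.27). Prdx2, Prdx4 and Prdx5 were not called, at −0.16, 0.24 and −0.11, and Txnrd3 was not called at 0.25.

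In the glutathione list 3 of 21 tested genes were called higher and 2 lower (23.8%, beside 23.1% of all tested genes), with a median of 0.02. Gpx4, the peroxidase of lipid peroxides, rose from 53.7, 58.1 and 51.8 CPM to 68.3, 71.2 and 73.9 CPM, a log2 fold change of 0.38, and Gstt1 rose by 1.20. Chac1, which degrades glutathione, rose by 0.70, a call lost without vehicle replicate 3 (0.56). Glrx5, a mitochondrial glutaredoxin of iron-sulfur assembly, was lower at −0.69. Gpx1 was lower at −0.71, a call lost without vehicle replicate 1 (−0.65), vehicle replicate 3 (−0.63) or S1P replicate 1 (−0.48) and with DESeq2 (−0.71).

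**Figure D4:**
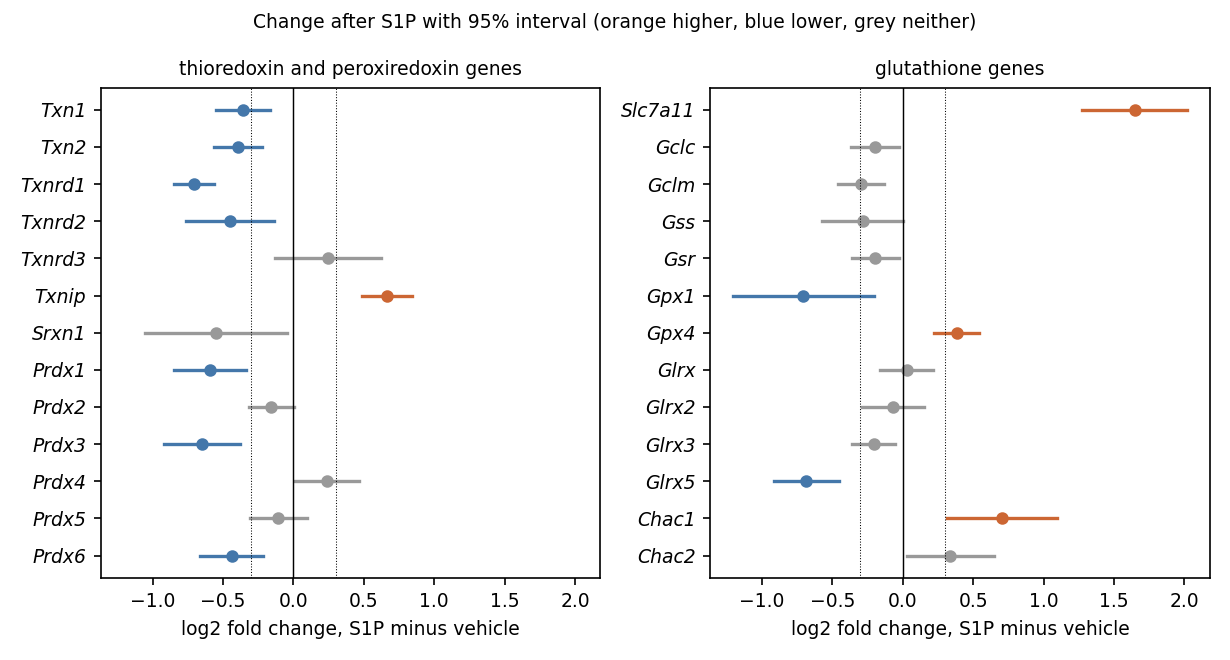
Log2 fold change (S1P minus vehicle, x axes) with 95% intervals for 13 thioredoxin and peroxiredoxin genes and 13 glutathione genes, picked for display after their values were seen, in orange (called higher), blue (called lower) or grey. Slc7a11 lies farthest to the right at 1.65, and Txnrd1 and Gpx1 lie farthest to the left at −0.71.

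Of 23 tested genes of haem and iron handling, 0 were called higher and 4 lower with edgeR's quasi-likelihood test (17.4%, beside 23.1% of all tested genes), with a median of −0.13. Alad, an enzyme of haem synthesis, fell by 0.70 on the log2 scale and Flvcr1, a haem exporter, by 0.45. Ftl1, the ferritin light chain, was lower at −0.66, a call lost without vehicle replicate 1 (−0.59), vehicle replicate 2 (−0.67) or S1P replicate 3 (−0.70) and with DESeq2 (−0.69). Its levels after S1P were 77.0, 37.2 and 62.4 CPM, and the log2 fold change of Ftl1 was −0.42 without S1P replicate 2, the lowest library, and −0.91 without S1P replicate 1, called in both fits. Hmox2, the constitutive relative of Hmox1, had a log2 fold change of 0.04 with overlapping groups and was named after its values were seen.

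Among 15 tested genes of NADPH supply, 1 was called higher and 3 lower (26.7%, beside 23.1% of all tested genes), with a median of −0.09. Nadk, the kinase that makes NADP, and Mthfd1, a folate enzyme that yields NADPH, fell by 0.53 and 0.52. Pgls, of the pentose phosphate pathway, was lower at −0.34, a call lost without vehicle replicates 1, 2 or 3 (−0.39, −0.35 and −0.30) or S1P replicates 2 or 3 (−0.27 and −0.37). Idh1 was higher at 0.59, a call lost without vehicle replicate 3 (0.42) or S1P replicate 3 (0.51). In the list of superoxide dismutases, catalase and NADPH oxidase subunits, 1 of 11 tested genes was called higher and 2 lower (27.3%), with a median of 0.05. Rac2, a GTPase of the oxidase, was lower at −0.38. Cyba was lower at −0.30, a call lost without vehicle replicates 1, 2 or 3 (−0.31, −0.29 and −0.32) or S1P replicate 2 (−0.22), with upper-quartile factors (−0.28) and with the filter of 10 counts in every sample (−0.30). Ncf1 was higher at 0.31, a call lost without vehicle replicate 2 (0.29), S1P replicate 1 (0.28) or S1P replicate 2 (0.27), with DESeq2 (0.29), with total count scaling (0.28) and with no filter (0.28).

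The genes whose log2 CPM followed Nfe2l2 most closely over the 6 libraries, among 8736 genes whose mean log2 CPM reached 3, were Tmsb10b, Klhl15, Gm5905, Rpl12 and Net1, with Pearson's r of 0.989, 0.989, 0.989, 0.988 and 0.983. The 6 points share the treatment and the scaling, and no p is given. None of the 5 belonged to the members or to the lists by role.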

How the data were processed

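Strand-specific libraries of polyadenylated RNA were sequenced from 3 vehicle and 3 S1P cultures. The authors deposited raw whole-number counts per Ensembl gene, with no normalization. The submitters' processing notes name Trim Galore, STAR, featureCounts, DESeq2 and the build GRCm39. Annotation release, strand setting and handling of multi-mapping reads are not given in the sources used here. Symbols came from GENCODE on GRCm39 (56323 of 56941 identifiers), which was also used for exon overlap and length.

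Counts were filtered with filterByExpr, scaled with TMM and fitted in edgeR 4.0.16 (R 4.3.3, limma 3.58.1) on treatment alone. The quasi-likelihood p-values of 13299 genes were adjusted by the Benjamini-Hochberg procedure. Ratios were compared by exact two-sided permutation tests. Alternatives were DESeq2 1.42.0, limma-voom, RLE, upper-quartile and total-count scaling, no filter, at least 10 counts in every sample, a replicate block, and leaving out each library. The scripts were tested on simulated data. All 10 members were named. Of each list, the genes past both thresholds were named in order of fold change, at most 5, except for an item that is not reported here. The members and lists were chosen with earlier results of these data known. Intervals cover the spread between cultures, and low counts add counting error.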

Additional observations from a re-analysis of the deposited data

How the results depend on the processing

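Txnrd1 and Prdx1 were called lower under all 14 alternatives. Hmox1 was called in 13, and without each library in turn its log2 fold change ranged from 0.54 to 0.83. Nfe2l2, Gclc, Srxn1 and Gsr kept their direction and were not called under any. Keap1 changed sign with DESeq2 (−0.0025), total count scaling (−0.0090) and no filter (−0.012), and ranged from −0.025 to 0.065 without each library. Gclm passed both thresholds with DESeq2 (−0.32), RLE factors (−0.30), total count scaling (−0.32) and no filter (−0.33), and ranged from −0.35 to −0.26 without each library. The causes were not tested. Without each library, called genes ranged from 2 to 5 for haem and iron, from 1 to 3 for the superoxide dismutase and oxidase list, from 3 to 6 for glutathione and from 2 to 4 for NADPH supply. In those fits 15.7% to 24.1% of all tested genes were called. Total count scaling called 1498 genes higher and 1511 lower, and upper-quartile scaling 1838 and 1206, against 1687 and 1384 with TMM. The replicate block called 3120 genes and 3 members. To check for pairing, the group mean of each gene was subtracted from its log2 CPM. These deviations correlated at 0.12, −0.0060 and 0.048 between libraries with the same replicate number, so the numbers were not taken as pairs. Nqo1 and Srxn1 had the fewest counts of the members, and low depth limits their tests.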
